A study of Mus musculus with 12 samples.

Results

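The genes described here encode the machinery of fatty acid oxidation and further targets of the nuclear receptor PPAR alpha. The list holds 38 genes, and a gene was taken as measured where a transcript cluster, the unit of the array, carried its symbol and no other. By this rule 36 of 38 genes were found, in 37 of 35556 clusters, because Hadhb had 2 clusters and the one with the higher mean over all arrays stood for the gene. Acsl1 was not analysed here, and Cyp4a32 shared its only named cluster with Cyp4a31 and Cyp4a10, so that it has no value of its own. The series has 12 mouse arrays in 6 groups of 2 arrays, named after their titles. The groups 6Y, 16Y and 42Y are the arrays that the series design text lists as type 2 diabetes (T2D), and the groups 1, 6K and 42WKK are those it lists as control. The methods name KK mice and KK-Ay mice, which are KK mice with the A-y allele of agouti, known to switch that gene on in all tissues and to bring obesity and diabetes, fed laboratory chow freely and analysed at 42 weeks. The ages of 1, 6K, 6Y and 16Y and the strain of group 1 are not given in what was used here. Nothing tells either whether the 2 arrays of a group are different mice, and the p-values therefore cover the spread between arrays, which may be technical.

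The labels conflict in 2 places that touch every comparison. The genotype field calls the 6K arrays T2D and the 42Y arrays control, against the design text and the titles. Signals of agouti (symbol a) (log2) ran from 6.78 to 7.06 over the 6 arrays titled Y and from 5.20 to 5.51 over the other 6, and the titles were kept as groups. The sample records also name blood leukocytes as the source, while the methods name liver. Over the 12 arrays the median signal of 8 hepatocyte genes was 13.06 to 13.33, that of 5 T cell genes 3.49 to 4.21 and that of 3 B cell genes 2.78 to 3.50, so the defining markers of lymphocytes were near the bottom of the scale and those of liver at the top. The median of 5 neutrophil genes was 3.92 to 4.56. That of the 2 measured erythroid genes was 7.27 to 7.62, with Alas2 at 9.28 to 9.81 and Slc4a1 at 4.75 to 5.79. In such bulk samples, fewer cells of a type and less RNA per cell cannot be told apart.

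PPAR alpha binds fatty acids and, as a partner of the retinoid X receptor, switches on genes for their uptake, activation and breakdown, above all in liver during fasting. Acyl chains enter mitochondria as carnitine esters and are shortened there by beta-oxidation, while very long chains are first shortened in peroxisomes. Omega-hydroxylases of the Cyp4a family oxidise the far end of the chain, and acyl-CoA thioesterases release free fatty acids again. Cyp4a14, Cyp4a10, Pdk4, Acot1 and Vnn1 are among the genes known to respond most strongly to activators of the receptor in mouse liver.

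The receptor is known for binding a direct repeat of the hexamer AGGTCA with 1 base between the repeats, so the 250 bases before the start site of the members were searched for it on both strands, in the RefSeq windows of build GRCm38.p6, which held 30 of 38 members. The hexamer alone lay in 5 of 30 windows (16.7%), namely Acadm, Acadvl, Acot4, Cpt1a and Fabp1, against 15.8% of 27025 genes. The full repeat AGGTCANAGGTCA lay in 0 of 30 windows and in 0.0407% of all genes, and with up to 1 mismatch it lay in 1 of 30 windows (3.33%), that of Fabp1, against 0.566% of all genes. The Fabp1 window, chr6:71199629-71199878 on the plus strand, is shown with the repeat and a second hexamer in capitals, both matching on the opposite strand and overlapping in the first.
Fabp1: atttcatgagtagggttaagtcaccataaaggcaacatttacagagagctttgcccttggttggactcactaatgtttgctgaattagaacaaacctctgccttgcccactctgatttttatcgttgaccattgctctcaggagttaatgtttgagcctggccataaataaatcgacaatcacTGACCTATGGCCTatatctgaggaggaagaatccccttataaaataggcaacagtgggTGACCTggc
These letters describe the window only, and a window without a match says nothing about binding elsewhere.

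The windows of the other members that passed the test in a comparison given later, as far as RefSeq windows were given, are shown because they belong to the genes the results turn on. Crat, Cyp4a10, Cyp4a14, Cyp4a31 and Vnn1 passed as well but had no such window, so they were not searched. None of the windows given for these other members holds the hexamer. They are Acot1 (chr12:84009252-84009501, plus strand) and its neighbour Acot2 (chr12:83987611-83987860, plus strand), Pdk4 (chr6:5496279-5496528, minus strand), Pex11a (chr7:79743132-79743381, minus strand) and Slc22a5 (chr11:53891704-53891953, minus strand).
Acot1: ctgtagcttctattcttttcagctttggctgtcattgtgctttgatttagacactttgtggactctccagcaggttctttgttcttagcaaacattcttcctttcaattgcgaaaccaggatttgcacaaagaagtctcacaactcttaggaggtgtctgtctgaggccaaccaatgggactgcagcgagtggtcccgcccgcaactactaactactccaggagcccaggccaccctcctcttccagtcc
Acot2: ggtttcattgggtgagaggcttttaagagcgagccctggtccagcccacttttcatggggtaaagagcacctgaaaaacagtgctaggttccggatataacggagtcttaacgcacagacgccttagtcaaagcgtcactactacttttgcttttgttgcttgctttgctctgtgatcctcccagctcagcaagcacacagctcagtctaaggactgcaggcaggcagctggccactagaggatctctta
Pdk4: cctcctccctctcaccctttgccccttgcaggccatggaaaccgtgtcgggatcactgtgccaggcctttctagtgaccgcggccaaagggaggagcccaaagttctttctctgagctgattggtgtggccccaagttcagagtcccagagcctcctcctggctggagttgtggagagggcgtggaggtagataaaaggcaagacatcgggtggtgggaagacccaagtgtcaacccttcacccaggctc
Pex11a: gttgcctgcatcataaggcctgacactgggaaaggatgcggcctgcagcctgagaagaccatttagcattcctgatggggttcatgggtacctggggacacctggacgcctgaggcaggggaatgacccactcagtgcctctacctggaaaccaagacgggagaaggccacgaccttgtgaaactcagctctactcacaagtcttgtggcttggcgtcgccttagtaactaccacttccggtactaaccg
Slc22a5: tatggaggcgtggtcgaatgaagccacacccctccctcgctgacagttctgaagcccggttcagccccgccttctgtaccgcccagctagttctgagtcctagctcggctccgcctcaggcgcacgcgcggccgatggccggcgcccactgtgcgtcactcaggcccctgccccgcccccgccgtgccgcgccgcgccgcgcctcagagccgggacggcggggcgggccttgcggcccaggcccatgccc
Hadhb is shown as well because its window (chr5:30155003-30155252, plus strand) is shared with Hadha, the other subunit of the same enzyme, which starts on the opposite strand, so that 228 of the 250 bases lie before both genes.
Hadhb: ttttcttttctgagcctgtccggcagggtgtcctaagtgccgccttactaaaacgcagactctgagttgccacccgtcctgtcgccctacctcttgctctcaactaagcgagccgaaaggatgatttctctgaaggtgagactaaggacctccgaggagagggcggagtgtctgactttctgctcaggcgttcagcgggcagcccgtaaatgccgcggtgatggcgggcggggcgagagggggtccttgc

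Expression of the 36 measured genes was highest most often in 16Y and lowest most often in 42Y. The mean of the 36 log2 signals was 9.38 and 9.42 in the 16Y arrays, 8.49 and 8.78 in the 42Y arrays, and 8.80 to 9.13 in the other 8 arrays. By group mean, 16Y was the highest of the 6 groups for 18 of 36 genes, and 42Y was the highest for 0 of 36 and the lowest for 19. Among 7667 genes with a mean signal of at least 6, 16Y was highest for 12.1%, and 42Y was highest for 15.2% and lowest for 16.1%. Most members moved little: the span of their group means had a median of 0.45, as it had over those 7667 genes. It exceeded 1 log2 unit in 11 of 36 members (30.6%) against 7.81% of those genes, and the 11 were Crat, Slc22a5, Pex11a, Acot1, Acot2, Acot3, Cyp4a10, Cyp4a14, Cyp4a31, Pdk4 and Vnn1. The members were not filtered by signal: 34 of 36 had a mean of at least 6, all but Acot3 (4.93) and Vnn1 (5.88).

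**Figure D1:**
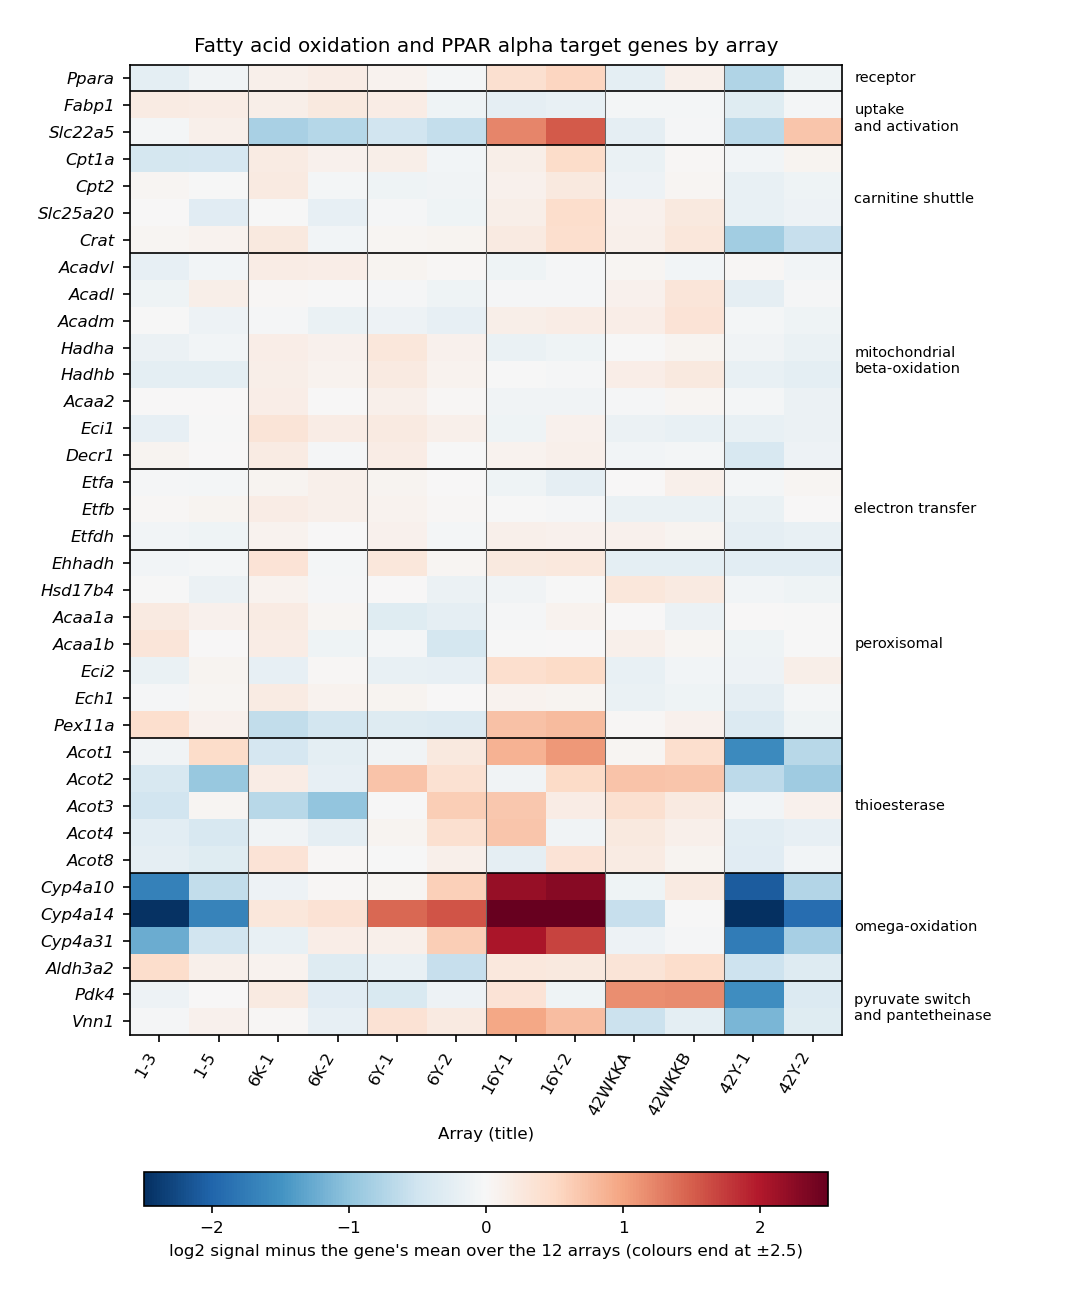
Log2 signal of each of the 36 measured genes (rows, ordered by role) in each of the 12 arrays (columns, by title), as the difference from that gene's mean over the 12 arrays, with colours ending at ±2.5. The omega-hydroxylases Cyp4a10, Cyp4a14 and Cyp4a31 are highest in both 16Y arrays and lowest in 42Y and group 1, while rows of the mitochondrial enzymes stay pale.

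In 42-week mice the question was which genes differ between KK-Ay and KK, and here 4 of 36 members fell in 42Y against 42WKK at an adjusted p under 0.05 (limma, Benjamini-Hochberg over all clusters), and 0 of 36 rose. The 4 were Pdk4, which encodes a kinase that restrains pyruvate oxidation, at 4.35-fold lower, Cyp4a14 at 4.15-fold lower, Acot2 at 2.77-fold lower and Crat, the carnitine acetyltransferase, at 1.91-fold lower. Over all clusters 0.920% were called lower and 0.934% higher, and among genes with a mean signal of at least 6 the shares were 2.18% and 1.63%. The median log2 difference of the members was -0.30 and 30 of 36 were negative, against a median of -0.04 and 56.8% negative among those 7667 genes. The count was 0 without either 42WKK array or without 42Y-1, and with the 2 arrays of group 1 in place of 42WKK, a comparison chosen after seeing the data, Crat alone was called (log2 difference -0.79, standard error 0.15, adjusted p = 0.0458).

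Within KK-Ay mice, 16Y was set against 6Y and 42Y against 16Y. Slc22a5, the plasma membrane carnitine transporter, and Pex11a, which drives the division of peroxisomes, rose in 16Y against 6Y by 3.76-fold and 2.15-fold, and 0 members fell. Of all clusters 0.582% were called higher and 1.20% lower, and 26 of 36 members had a positive difference with a median of 0.18, while the median over the 7667 genes was -0.08. In 42Y against 16Y, 7 of 36 members fell and 0 rose, against 0.194% and 0.205% of all clusters. They were Cyp4a14 (37.3-fold lower), Cyp4a10 (12.5-fold), Cyp4a31 (8.86-fold), Acot1 (4.34-fold), Vnn1 (3.03-fold), Crat (2.07-fold) and Pex11a (1.99-fold), and 32 of 36 members were negative with a median of -0.34 against 0.02 over the 7667 genes. With 1 array left out, 0 members were called in 16Y against 6Y without any array of these groups, 1 without an array of 1, 6K or 42WKK and 4 without an array of 42Y. In 42Y against 16Y 0 were called without 16Y-2, 1 without 16Y-1 or 42Y-1, 2 without an array of 42WKK, 3 without one of 6Y, 4 without one of group 1 and 10 without 42Y-2. The comparisons share the 16Y arrays, and the 42Y arrays also enter that against 42WKK, so they are not independent of each other. When each array was centred on its median, the clusters called changed from 207 higher and 427 lower to 171 and 795 for 16Y against 6Y, and from 73 and 69 to 137 and 57 for 42Y against 16Y, with the members' counts as before.

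**Figure D2:**
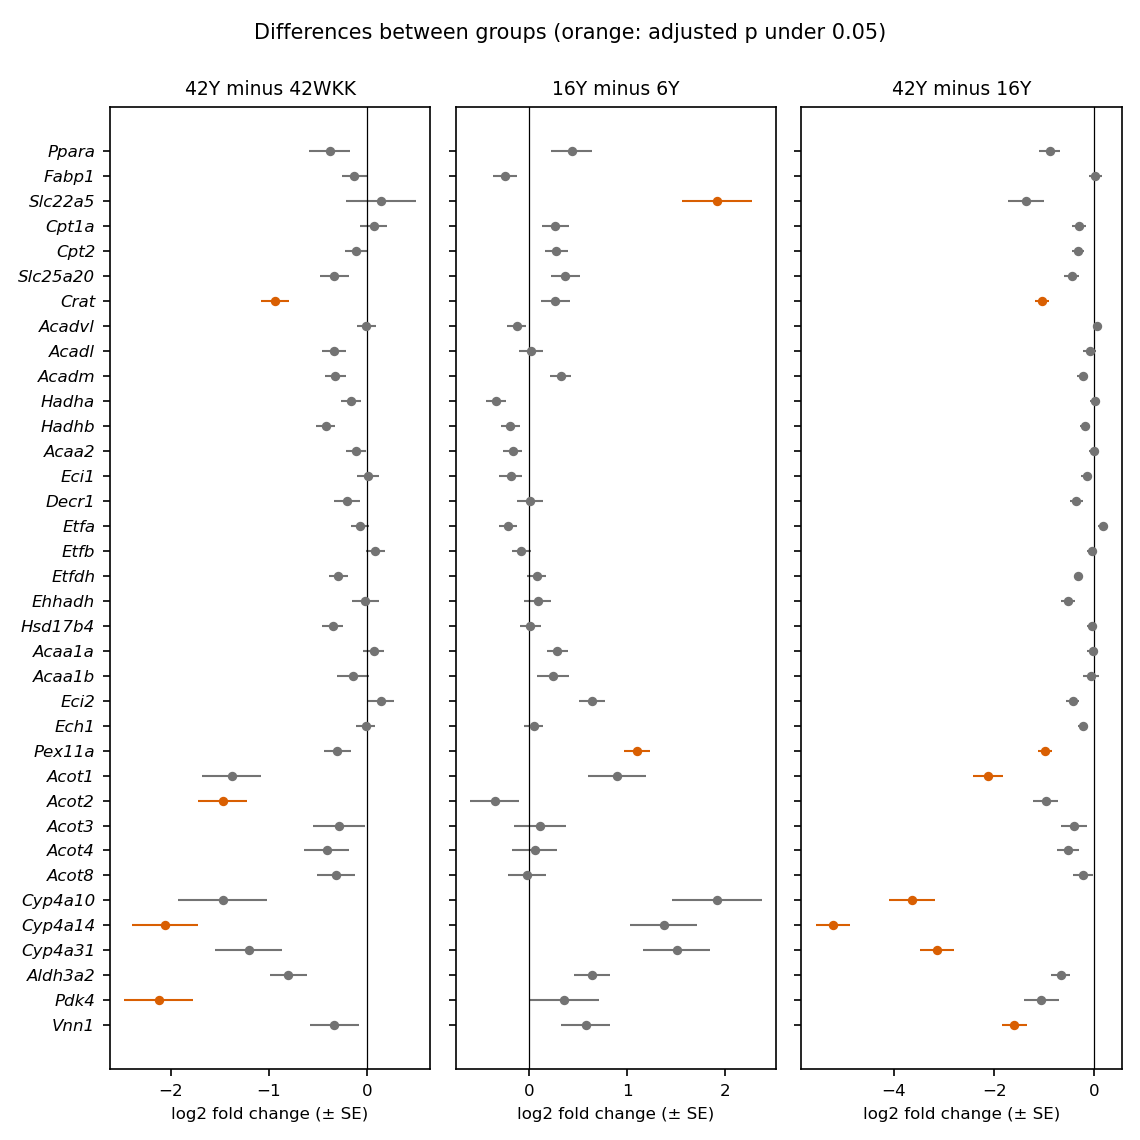
Log2 fold change of each of the 36 genes (points) with its standard error (bars) from the limma fit, for 42Y minus 42WKK, 16Y minus 6Y and 42Y minus 16Y, on axes of different width. Orange marks an adjusted p under 0.05, which is 4 genes in the left panel, 2 in the middle and 7 in the right, where Cyp4a14 lies at -5.22.

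In the other comparisons few members or none passed. In 6Y against 6K, 0 of 36 members were called by limma in either direction and 3 had an unadjusted p under 0.05, and of all clusters 0.00281% were called higher, which is the agouti cluster alone, and 0 lower. In 42WKK against 6K, both control groups by title, 0 of 36 were called, against 0.554% of clusters called higher and 0.458% lower. Here 10 members and 5321 clusters had an unadjusted p under 0.05. Cyp4a14 was the only member called when the 3 Y groups were set against the other 3 groups. Of all clusters 0.129% were called higher and 0.0787% lower, and 11 members and 4370 clusters had an unadjusted p under 0.05. The difference between the 42Y to 42WKK step and the 6Y to 6K step was tested directly. In it 0 of 36 members were called, against 0.0900% of clusters called higher and 0.0534% lower, and 12 members and 4707 clusters had an unadjusted p under 0.05. The smallest adjusted p was that of Cyp4a14, whose log2 value of -3.24 (standard error 0.48, adjusted p = 0.0544) joins a difference of -2.05 between 42Y and 42WKK to one of 1.18 between 6Y and 6K. The count depended on the setting, with 5 members called lower when only clusters with a mean of at least 6 were tested, and 2 lower with a variance trend, with clusters of 1 symbol or with the mean of a gene's clusters.

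The receptor gene Ppara was at 9.39 and 9.55 in group 1, 9.76 and 9.81 in 6K, 9.72 and 9.58 in 6Y, 10.02 and 10.16 in 16Y, 9.39 and 9.76 in 42WKK, and 8.88 and 9.52 in 42Y. Both 16Y arrays were the highest of the 12 and 42Y-1 was the lowest, while 42Y-2 lay within the range of group 1 and 42WKK. Ppara passed in none of the 7 comparisons. It differed by -0.38 in 42Y against 42WKK (95% interval -0.85 to 0.09, adjusted p = 0.392), by 0.44 in 16Y against 6Y (adjusted p = 0.310) and by -0.89 in 42Y against 16Y (interval -1.36 to -0.42, adjusted p = 0.107). Of 12 further regulators, among them the receptor's partner Rxra and the coactivator Ppargc1a, 10 were measured and 0 were called in any comparison.

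Carnitine carries acyl groups across the mitochondrial membrane. Slc22a5, which brings carnitine into the cell, was at 6.62 and 6.81 in group 1, 5.87 and 5.96 in 6K, 6.19 and 6.09 in 6Y, 7.89 and 8.21 in 16Y, 6.46 and 6.64 in 42WKK, and 6.01 and 7.38 in 42Y. Both 16Y arrays exceeded every other array, and the 42Y arrays were 1.37 apart, the widest gap of any member within a group. Its log2 difference of 1.91 in 16Y against 6Y (standard error 0.36, adjusted p = 0.0425) was lost when any single array other than those of 42Y was left out, with an adjusted p of 0.0643 to 0.171. In 42Y against 16Y it was -1.36 (adjusted p = 0.140).

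Crat transfers acetyl groups between carnitine and coenzyme A. Its signals were 7.98 and 8.03 in group 1, 8.18 and 7.87 in 6K, 7.98 and 8.0 in 6Y, 8.16 and 8.36 in 16Y, 8.07 and 8.23 in 42WKK, and 7.07 and 7.36 in 42Y. Every 42Y array lay below all other arrays, and the other 10 arrays spanned only 7.87 to 8.36. The log2 difference was -0.94 in 42Y against 42WKK (standard error 0.15, adjusted p = 0.0252, up to 0.435 over all alternatives) and -1.05 in 42Y against 16Y (standard error 0.15, adjusted p = 0.0333). The Crat call in 42Y against 16Y was lost when any single array other than those of 6K or 42Y-2 was left out. The gatekeeper enzyme Cpt1a, its partner Cpt2 and the carrier Slc25a20 did not pass in any comparison. Cpt1a was at 9.34 and 9.36 in group 1 and between 9.62 and 10.24 in the other 10 arrays, and differed by 0.07 in 42Y against 42WKK (interval -0.25 to 0.38).

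**Figure D3:**
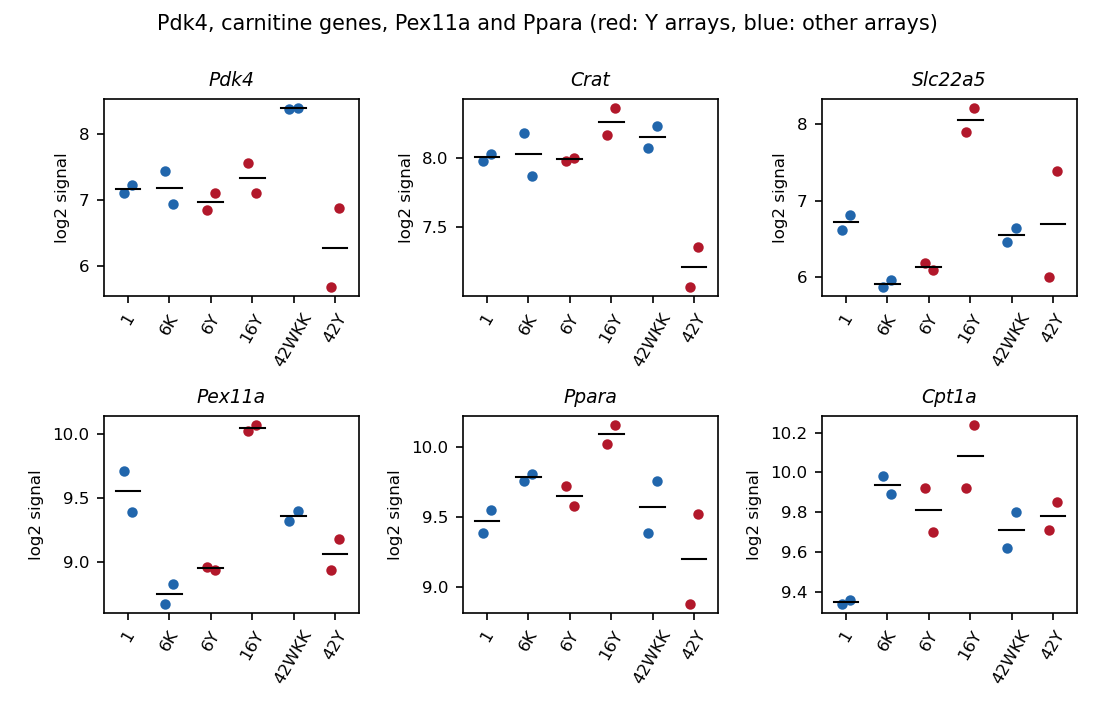
Log2 signal per array (points, red for the Y groups 6Y, 16Y and 42Y, blue for 1, 6K and 42WKK) and group mean of 2 arrays (lines) for Pdk4, Crat, Slc22a5, Pex11a, Ppara and Cpt1a, with each panel on its own scale. Crat is lowest in both 42Y arrays at 7.07 and 7.36, and Pdk4 is highest in both 42WKK arrays at 8.38 and 8.40.

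The 8 genes of mitochondrial beta-oxidation moved little. They encode the acyl-CoA dehydrogenases Acadvl, Acadl and Acadm, the trifunctional protein Hadha and Hadhb, the thiolase Acaa2, and Eci1 and Decr1, which handle double bonds. Their signals lay between 8.32 and 11.87, the widest span of any of them over 12 arrays was 0.61 (Decr1), and 0 of 8 were called in any comparison. At most 1.20% of all clusters were called in either direction of a comparison, so 0 of 8 does not by itself show a lack of change. Their log2 differences ran from -0.42 to 0.01 in 42Y against 42WKK, with 7 of 8 negative, from -0.33 to 0.32 in 16Y against 6Y and from -0.36 to 0.06 in 42Y against 16Y. The lowest was that of Hadhb in 42Y against 42WKK, at -0.42 by both its clusters (adjusted p = 0.0683 and 0.0712), while Hadha, which shares its promoter, was at -0.16. Some unadjusted 95% intervals left out 0. In 42Y against 42WKK these included Hadhb (-0.64 to -0.21), Acadl (-0.62 to -0.06) and Acadm (-0.57 to -0.08). In 16Y against 6Y they were Hadha (-0.56 to -0.10) and, in the other direction, Acadm (0.08 to 0.57). In 42Y against 16Y it was Decr1 alone (-0.66 to -0.06). The electron carriers of this pathway, Etfa, Etfb and Etfdh, spanned at most 0.36 each over the 12 arrays and 0 of 3 were called. Etfdh differed by -0.29 in 42Y against 42WKK (interval -0.50 to -0.08) and by -0.32 in 42Y against 16Y (-0.53 to -0.11). In each of these comparisons 2 of the 3 were negative and 1 was positive.

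The 7 peroxisomal members had positive differences in 16Y against 6Y and negative ones in 42Y against 16Y, but only Pex11a passed. In a further list headed peroxisomal, with 15 genes measured and none of them members, 3 fell (Abcd2, Hacl1 and Nudt7) and 1 rose (Acot12, a thioesterase known from the cytosol) in 16Y against 6Y, with a median of -0.22. Of all clusters 1.20% were called lower there and 0.582% higher. The signals of Pex11a were 9.71 and 9.39 in group 1, 8.67 and 8.83 in 6K, 8.96 and 8.94 in 6Y, 10.02 and 10.07 in 16Y, 9.32 and 9.40 in 42WKK, and 8.94 and 9.18 in 42Y. The 16Y arrays stood above all others, and 6K, 6Y and 42Y-1 lay at the bottom. The log2 difference was 1.10 in 16Y against 6Y (standard error 0.13, adjusted p = 0.0197) and -0.99 in 42Y against 16Y (standard error 0.13, adjusted p = 0.0332), and in 42Y against 42WKK it was -0.30. The first was lost without any single array of 6Y or 16Y. The second was lost without any of these, either 42WKK array or 42Y-1. Eci2, an isomerase of unsaturated chains, came next at 0.64 in 16Y against 6Y (adjusted p = 0.0538), and the others, the bifunctional enzymes Ehhadh and Hsd17b4, the thiolases Acaa1a and Acaa1b and the isomerase Ech1, ran from 0.02 to 0.29 in that comparison.

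The thioesterases of the Acot family split fatty acyl-CoA, Acot1 in the cytosol, Acot2 in mitochondria and Acot3, Acot4 and Acot8 in peroxisomes. Acot1 was at 6.17 and 6.72 in group 1, 5.85 and 6.02 in 6K, 6.18 and 6.50 in 6Y, 7.13 and 7.35 in 16Y, 6.31 and 6.69 in 42WKK, and 4.68 and 5.57 in 42Y. It was highest in both 16Y arrays and lowest in both 42Y arrays. Its log2 difference was -2.12 in 42Y against 16Y (standard error 0.30, adjusted p = 0.0349) and -1.38 in 42Y against 42WKK (adjusted p = 0.0615, which did not pass). The call against 16Y was lost when any single array other than those of 6K or 42Y-2 was left out.

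Acot2 followed another order. It was at 7.94 and 7.39 in group 1, 8.52 and 8.14 in 6K, 9.06 and 8.71 in 6Y, 8.26 and 8.82 in 16Y, 9.05 and 9.03 in 42WKK, and 7.69 and 7.45 in 42Y. The 42Y arrays lay below all arrays but those of group 1, with which they overlapped. The log2 difference was -1.47 in 42Y against 42WKK (standard error 0.25, adjusted p = 0.0316) and -0.09 against group 1 (adjusted p = 0.881), and the call against 42WKK was lost without any single array of either 42-week group. Acot1 and Acot2 are near-identical neighbours, so probes may share signal between them.

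Acot3 was at 4.44 and 4.98 in group 1, 4.23 and 3.94 in 6K, 4.91 and 5.55 in 6Y, 5.59 and 5.11 in 16Y, 5.32 and 5.15 in 42WKK, and 4.85 and 5.04 in 42Y. The 6K arrays were the lowest, but its log2 differences of 1.15 in 6Y against 6K (adjusted p = 0.727) and of 1.15 in 42WKK against 6K (adjusted p = 0.0891) did not pass. Acot4 and Acot8 spanned 6.24 to 7.33 and 6.47 to 7.11 and were not called. All 5 thioesterases were negative in 42Y against 42WKK, from -1.47 to -0.29, and in 42Y against 16Y, from -2.12 to -0.22.

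Cyp4a14, an omega-hydroxylase of fatty acids, had the widest range of all members, 5.81 log2 units. Its signals were 4.04 and 4.83 in group 1, 6.79 and 6.87 in 6K, 7.94 and 8.08 in 6Y, 9.24 and 9.53 in 16Y, 5.94 and 6.50 in 42WKK, and 3.72 and 4.61 in 42Y. In order of level, 42Y and group 1 overlapped, and 42WKK, 6K, 6Y and 16Y followed without overlap between neighbours. Between 42Y and 16Y the log2 difference was -5.22 (standard error 0.34, adjusted p = 0.00252), which passed with 11 of 12 arrays left out in turn but not without 16Y-2 (adjusted p = 0.0664). Between 42Y and 42WKK it was -2.05 (standard error 0.34, adjusted p = 0.0295) and between 42Y and group 1 it was -0.28 (adjusted p = 0.708). Between 16Y and 6Y it was 1.37 (adjusted p = 0.0820), and between 6Y and 6K it was 1.18 (interval 0.41 to 1.95, adjusted p = 0.817).

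Over all Y groups, Cyp4a14 averaged 7.19 ± 2.44 (SD, 6 arrays) against 5.83 ± 1.15 (SD, 6 arrays) in the others, and the ranges overlapped, with 3.72 to 9.53 against 4.04 to 6.87. The fit by 6 groups, which uses the spread within pairs of arrays, gave a log2 difference of 1.36 (standard error 0.19, adjusted p = 0.0447). A fit with 2 groups of 6 arrays gave an adjusted p of 0.872, and an exact permutation test of the 12 arrays, two-sided, gave p = 0.242. Both treat the 12 arrays as separate units, although they come in pairs by title group. The call was also lost when any single array other than 42Y-1 was left out.

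Cyp4a10 and Cyp4a31 belong to the same cluster of near-identical hydroxylase genes, so that their probes may share signal. Cyp4a10 was at 5.42 and 6.49 in group 1, 6.97 and 7.14 in 6K, 7.15 and 7.70 in 6Y, 9.29 and 9.38 in 16Y, 6.99 and 7.34 in 42WKK, and 5.03 and 6.37 in 42Y. Cyp4a31 was at 6.28 and 7.05 in group 1, 7.34 and 7.68 in 6K, 7.64 and 8.13 in 6Y, 9.56 and 9.21 in 16Y, 7.40 and 7.49 in 42WKK, and 5.78 and 6.69 in 42Y. In both genes 16Y was above every other array, and 42Y overlapped with group 1 only. Their log2 differences in 42Y against 16Y were -3.64 (standard error 0.45, adjusted p = 0.0274) and -3.15 (standard error 0.34, adjusted p = 0.0195), while those in 16Y against 6Y, 1.91 and 1.50, did not pass (adjusted p = 0.0741 and 0.0679). Against 42WKK they were -1.47 and -1.20 in 42Y (adjusted p = 0.150 and 0.127). Both calls in 42Y against 16Y were lost without either 16Y array or 42Y-1, and that of Cyp4a10 also without either 42WKK array. Aldh3a2, which oxidises fatty aldehydes, was not called, with -0.80 in 42Y against 42WKK (adjusted p = 0.0762).

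**Figure D4:**
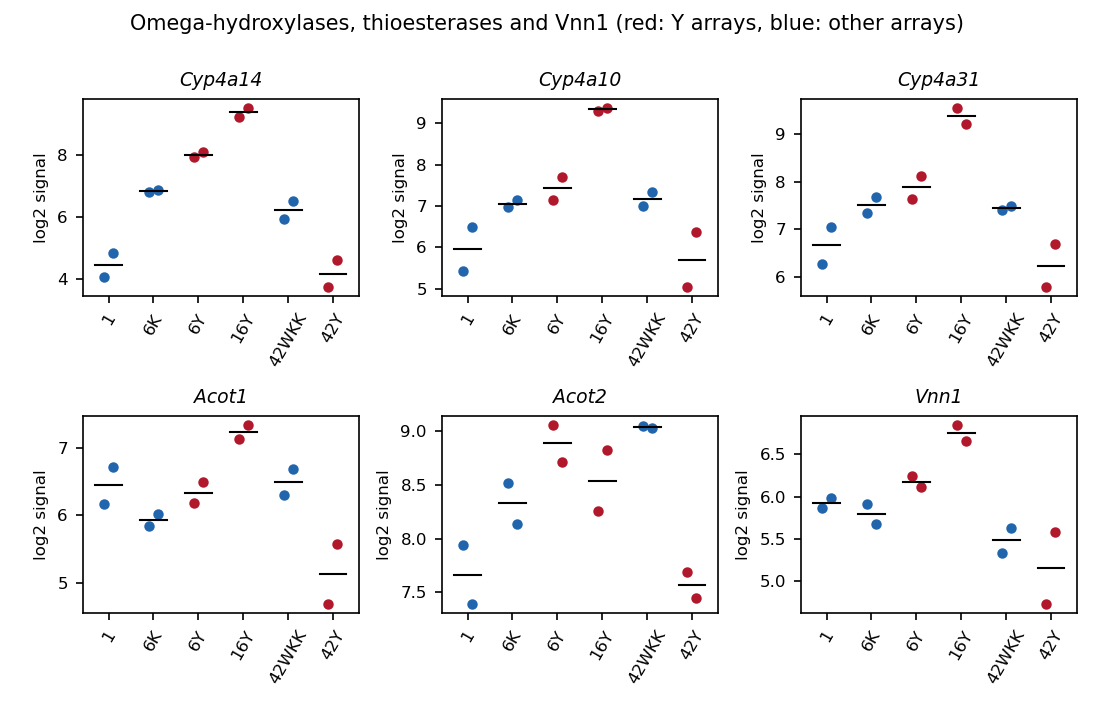
Log2 signal per array (points, red for the Y groups 6Y, 16Y and 42Y, blue for 1, 6K and 42WKK) and group mean of 2 arrays (lines) for Cyp4a14, Cyp4a10, Cyp4a31, Acot1, Acot2 and Vnn1, with each panel on its own scale. All but Acot2 are highest in the 16Y arrays, and Cyp4a14 falls to 3.72 and 4.61 in 42Y.

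Pdk4 inhibits pyruvate dehydrogenase and so spares glucose when fatty acids are burned. It was at 7.10 and 7.22 in group 1, 7.44 and 6.93 in 6K, 6.84 and 7.10 in 6Y, 7.56 and 7.11 in 16Y, 8.38 and 8.40 in 42WKK, and 5.67 and 6.87 in 42Y. The 42WKK arrays were above all others, 42Y-1 was far below them, and 42Y-2 lay beside 6Y-1 and 6K-2. The log2 difference in 42Y against 42WKK was -2.12 (standard error 0.35, adjusted p = 0.0302), and it was lost without 42Y-1, either 42WKK array or either array of group 1, with an adjusted p of up to 0.489 over all alternatives. In 42Y against group 1 it was -0.89 (adjusted p = 0.224), and in 42WKK against 6K it was 1.21 (adjusted p = 0.155).

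Vnn1 encodes pantetheinase, which recycles a building block of coenzyme A. It was at 5.86 and 5.98 in group 1, 5.91 and 5.68 in 6K, 6.24 and 6.11 in 6Y, 6.85 and 6.65 in 16Y, 5.34 and 5.63 in 42WKK, and 4.73 and 5.58 in 42Y. It was highest in both 16Y arrays, and 42WKK and 42Y overlapped at the bottom. The log2 difference of -1.60 in 42Y against 16Y (standard error 0.25, adjusted p = 0.0432) held only when 42Y-2 was left out and was lost without any other single array, with an adjusted p of 0.0525 to 0.213. Fabp1, the abundant fatty acid binding protein of liver, stayed between 11.91 and 12.46 and was not called.

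Of 66 further genes of the pathway, 57 were measured. In 42Y against 42WKK 1 of 57 fell, Acacb, whose product makes the malonyl-CoA that inhibits Cpt1a (log2 difference -0.97, adjusted p = 0.0213), and 0 rose. Of all clusters 0.920% were called lower there and 0.934% higher. In 16Y against 6Y, where Pex11a and Slc22a5 rose, 6 of 57 fell and 2 rose, against 1.20% and 0.582% of all clusters. Those that fell were Abcd2 (-1.90), Nudt7 (-1.09), Cyp4f14 (-0.98), Acacb (-0.85), Hacl1 (-0.72) and Acsl5 (-0.66), and those that rose were Acot12 (0.59) and Cyp4f15 (0.59). In 42Y against 16Y 1 fell, the lipid droplet protein Plin5 (-1.95, adjusted p = 0.0332), against 0.194% of all clusters. In 42WKK against 6K 1 rose, Cidec, also of lipid droplets (3.00, adjusted p = 0.0334), against 0.554% of all clusters. In the comparison of the 3 Y groups with the others Acacb fell (-0.61, adjusted p = 0.0389), against 0.0787%. In 6Y against 6K and in the difference of the differences 0 were called. The medians of the 57 genes lay between -0.19 and 0.08 in the 7 comparisons.

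Other measures also differed between these groups. Of 17 clock genes 15 were measured, and their median per array ran from 6.32 to 7.66. In 42Y against 42WKK 5 of 15 rose and 3 fell, against 0.934% and 0.920% of all clusters. In 42Y against 16Y 2 rose and 2 fell, against 0.205% and 0.194%. In 16Y against 6Y 3 rose, against 0.582%. Arntl was at 5.62 and 5.67 in 42Y and at 7.30 to 7.74 in the other arrays, and Dbp at 7.81 and 9.01 in 42Y and at 5.62 to 6.26 elsewhere. The sources used here give no time of day or feeding state for the samples. Some markers of other liver cells were lower in 16Y than in 6Y. Called lower were 1 of 5 stellate cell genes and 2 of 4 endothelial genes, against 1.20% of all clusters. The stellate median went from 6.65 and 7.25 to 5.95 and 6.01 between these groups, and the endothelial median from 7.49 and 7.82 to 6.85 and 6.98. In 6K they were at 6.71 and 6.59 and at 7.19 and 7.40. Over group 1, 42WKK and 42Y the stellate median was 5.67 to 5.98 and the endothelial median 6.62 to 7.27. The stellate median was thus higher in 6K and 6Y than in all other groups, not low in 16Y alone. The endothelial median of 42Y-1 reached the range of 6K. The part of the clock genes and of these cells in the results was not tested. The 42Y arrays also agreed least with each other, with a Pearson correlation of 0.983 over all clusters against 0.988 to 0.991 in the other groups, and a mean gap of 0.330 between them over the 36 genes, against 0.138 to 0.221.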

How the data were processed

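Gene expression was measured on 12 Affymetrix arrays. The authors deposited log2 values for 35556 transcript clusters, for which the submitters' processing notes name Affymetrix Expression Console and the methods the sketch form of robust multichip analysis. The methods name a mouse exon array, whereas the cluster identifiers are those of a mouse gene array. Their genome build was not given in the sources used here, and cluster positions are left out. Log2 differences between summarised probe signals tend to be smaller than those of the RNA itself. Symbols came from the platform annotation, updated by gene identifier through GRCm38.p6 for 21698 clusters. In all, 21789 clusters had 1 symbol, 1621 several and 12146 none, which gave 19938 genes.

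A model with 6 group means and 6 residual degrees of freedom was fitted to these values in limma 3.58.1 under R 4.3.3 (lmFit, contrasts.fit, eBayes without trend). The p-values of all clusters were adjusted after Benjamini and Hochberg, with calls at an adjusted p under 0.05. The 7 comparisons share arrays. Folds are powers of 2 of the fitted differences. The fit was tested on simulated data. The members, the further lists and the tests were chosen with earlier results of these data known. Every array's value is given for Ppara, for each member called, and for the 2 members with the largest differences in each comparison, and the other members are given by range and count within their role. There is no read depth for arrays, and precision is limited by how few there are. Array numbers were not taken as pairs, since the deviations of same-numbered arrays correlated at only -0.036 to 0.055 between groups. Alternatives covered normalization, a filter at a mean of 6, a variance trend, the choice of clusters, the arrays in the fit, the study's own F test, a replicate block and each array left out. Some genes are left out of the further pathway list.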

Additional observations from a re-analysis of the deposited data

Results flagged for a closer look

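Among the 36 members, each taken over the 6 Y arrays and over the 6 other arrays, 4 of 72 groups held an array whose gap to its nearest neighbour exceeded Dixon's 95% critical share of the group's whole range. Chance gives this in about 1 of 20 groups of independent values from the same normal distribution. Each group here joins several title groups with means of their own, so that rate need not hold. The Acadl signal of 42Y-1, at 9.68, was the lowest of the Y arrays. The Acaa1b signal of 6Y-2, at 10.27, was likewise the lowest of the Y arrays. The signals of Acaa2, at 11.87, and of Ehhadh, at 10.58, were the highest of the other arrays in 6K-1. None of these 4 genes was called in any comparison.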

How the results depend on the processing

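The 14 calls of members, on 10 genes, kept their direction under every alternative and every left-out array. For many of these settings the direction could not change. A variance trend, a filter of clusters or the loss of an array outside the comparison leaves the log2 difference as it was. Over the alternatives 109 of 136 values also kept their side of the threshold, and over the left-out arrays 83 of 168 did. The 136 values include the study's F test at an unadjusted p and group 1 in place of 42WKK, so they do not all share a threshold and a comparison. Counts depended on how many clusters were tested. With clusters of a mean of at least 6, the number of members called was 11 in 42Y against 42WKK, 9 (8 higher, 1 lower) in 16Y against 6Y, 12 in 42Y against 16Y, 5 (3 higher, 2 lower) in 42WKK against 6K and 5 in the difference of differences. With a variance trend these were 7, 5, 7, 1 and 2, with clusters of 1 symbol 8, 6, 8, 2 and 2, and with the mean of a gene's clusters 7, 6, 8, 2 and 2. With only the arrays of a comparison 0 members were called in each, and over all clusters 0 in 42Y against 42WKK. Without the 6K arrays 1 was called in 16Y against 6Y. The F test that the study's table names, on the 4 arrays of 42-week mice, called 7 members unadjusted and 0 after adjustment, and 3817 and 0 clusters against 659 by limma. With group 1 in place of 42WKK 1 member was called, and with 2 groups of 6 arrays 0 in the Y groups against the others. With 1 array left out the counts were 0 to 4 in 42Y against 42WKK, 0 to 4 in 16Y against 6Y, 0 to 10 in 42Y against 16Y (0 without 16Y-2, 1 without 16Y-1 or 42Y-1), 0 to 2 in the Y groups against the others, 0 to 2 in the difference of differences, and 0 in the other comparisons. All clusters called in 42Y against 42WKK fell from 659 to 52 without 42WKKA and to 81 without 42WKKB. With a replicate block the members called were 5 in 42Y against 42WKK, 2 in 16Y against 6Y, 5 in 42Y against 16Y (Crat and Vnn1 were lost), 1 in the Y groups against the others and 0 in the remaining comparisons. The cause of these changes was not tested, beyond the smaller number of arrays or clusters. A single array left alone in its group was assumed to vary like the arrays of the other groups.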
